A study of Homo sapiens with 6 samples.

Results

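The granins and their partners in the granule membrane were examined in EndoC-βH1 cells (EndoCBH1 in the labels), which are immortalized human beta cells of fetal origin, after siRNA against the homeobox factor MNX1. The 8 genes were fixed by name, with earlier results of these data known, as CHGA, CHGB, SCG2, SCG3, SCG5, VGF, PTPRN and PTPRN2. All 8 were among the 16792 genes of the deposited table. The cells of 3 libraries received siRNA against MNX1 (siMNX1, labelled as MNX1 knock down), and those of the other 3 received a non-targeting siRNA (siNT, labelled WT). Both groups are the same cell line. The labels do not say whether the libraries of a group came from separate cultures or, for siMNX1, from different siRNA sequences, so p-values measure the spread between these libraries, which may be technical.

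Beta cells store insulin in dense-core secretory granules. Granins are acidic proteins that aggregate with hormone in the trans-Golgi network, help to form these granules, and are cut into peptides that are released together with the hormone. CHGA and CHGB encode chromogranin A and chromogranin B, and SCG2 encodes secretogranin II, the precursor of secretoneurin. SCG3 encodes secretogranin III, which links aggregated chromogranin A to the granule membrane, and SCG5 encodes the chaperone of prohormone convertase PCSK2. VGF encodes a precursor of neuroendocrine peptides. PTPRN and PTPRN2 encode receptor-type phosphatase-like proteins that span the granule membrane, and both proteins are autoantigens in autoimmune diabetes.

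The regions before the RefSeq starts of CHGA, VGF and PTPRN are shown because these 3 genes rose after MNX1 siRNA. Of the 8 genes, 5 had an entry in the RefSeq promoter table (GRCh38.p14), namely CHGA, SCG3, SCG5, VGF and, with 2 starts, PTPRN. CHGB also rose but had no entry, so its promoter was not searched. Each sequence below is the 250 bases before the RefSeq start, written 5′ to 3′ on the strand of the gene, and capitals mark matches, on either strand, to TGACG, the short core of the cyclic AMP response element. For PTPRN the more upstream of the 2 starts is shown. The windows are chr14:92922900-92923149 (plus strand) for CHGA, chr7:101165570-101165819 (minus strand) for VGF and chr2:219309402-219309651 (minus strand) for PTPRN. The RefSeq starts lie downstream of the outermost GENCODE 29 starts, so 70 bases of the CHGA window, 24 of the VGF window and 247 of the PTPRN window fall inside the gene bounds given below.
CHGA: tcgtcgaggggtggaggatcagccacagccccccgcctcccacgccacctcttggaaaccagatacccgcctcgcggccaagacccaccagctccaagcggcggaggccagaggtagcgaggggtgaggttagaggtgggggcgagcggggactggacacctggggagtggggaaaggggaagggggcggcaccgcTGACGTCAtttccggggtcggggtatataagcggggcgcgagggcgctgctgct
VGF: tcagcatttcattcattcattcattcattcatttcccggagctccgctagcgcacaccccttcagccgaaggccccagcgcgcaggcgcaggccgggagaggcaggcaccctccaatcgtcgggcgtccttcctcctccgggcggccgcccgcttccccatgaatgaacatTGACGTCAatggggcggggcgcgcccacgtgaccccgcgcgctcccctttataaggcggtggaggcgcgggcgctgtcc
PTPRN: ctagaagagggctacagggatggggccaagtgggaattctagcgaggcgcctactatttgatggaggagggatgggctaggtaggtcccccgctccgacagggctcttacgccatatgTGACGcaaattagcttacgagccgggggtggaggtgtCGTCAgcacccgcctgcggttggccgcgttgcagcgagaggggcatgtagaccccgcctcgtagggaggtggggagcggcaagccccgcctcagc

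The full palindromic element TGACGTCA, in which 2 copies of TGACG overlap on opposite strands, was present in CHGA, beginning 54 bases before the start, and in VGF, beginning 79 bases before it. It was absent from the windows of SCG3, SCG5 and both PTPRN starts, and 1.65% of all 35116 promoter windows of this length hold it on either strand. The core TGACG matched at 132 and 95 bases before the upstream PTPRN start and at 17 bases before the SCG5 start, and did not match in SCG3. It occurs in 21.2% of all windows on either strand. The GC box GGGCGG, searched on both strands, matched 3 times in VGF, 1 time in CHGA and SCG5 and 2 times at the second PTPRN start, and 42.6% of all windows hold it. The letters TATAA lay on the gene's strand at 29 bases before the CHGA start and 30 bases before the VGF start. At any position on that strand, 13.6% of all windows hold them. The homeodomain core TAATTA, searched on both strands, was in none of the 6 windows of these genes and in 4.35% of all windows.

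Deposited totals ran from 18436560 to 18704645 in siMNX1 libraries and from 18406479 to 18600819 in siNT libraries. They follow the authors' normalization, and the read depth behind each value is unknown. MNX1 itself had 1885, 1708 and 1751 normalized counts in siMNX1 replicates 1 to 3, against 2039, 2033 and 1988 in siNT replicates 1 to 3. All siMNX1 values were below all siNT values, but with a log2 fold change of -0.18 the gene missed the threshold (limma, adjusted p = 0.116). INS, the insulin gene that defines beta cells, averaged 125386 ± 5655 in siMNX1 and 110539 ± 3758 in siNT. All siMNX1 values of INS were above all siNT values. With a log2 fold change of 0.18 it also missed the threshold (limma, adjusted p = 0.0656). On the second principal component, siMNX1 replicate 2 scored 17.9 and the other 5 libraries -9.59 to 6.78.

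After MNX1 siRNA, limma called 4 of the 8 genes higher (VGF, CHGA, PTPRN and CHGB) and 0 lower at an adjusted p of 0.05, and the other 4 missed the threshold. The background over all 16792 genes was 1.99% called higher, 1.33% called lower and 3.32% in either direction, and among the 8405 genes with a mean of at least 400, a bound chosen after the values were seen, it was 2.58% higher, 1.89% lower and 4.47% in either direction. An unadjusted p under 0.05 was reached by 7 of the 8 genes and by 18.4% of all genes. The siMNX1 values were all above the siNT values for 6 of the 8 genes, where 12.0% of all genes did so, and below for 1 gene (SCG2), where 12.1% of all genes did so. The groups overlapped for SCG3. The median log2 fold change was 0.24 over the 8 genes and -0.0004 over all genes. Because the 8 genes were chosen with earlier results known, these counts are not independent evidence. Without siMNX1 replicate 2 the count of genes called higher was again 4. It was 3 without siMNX1 replicate 3, siNT replicate 1 or siNT replicate 3, and also without the variance trend.

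**Figure D1:**
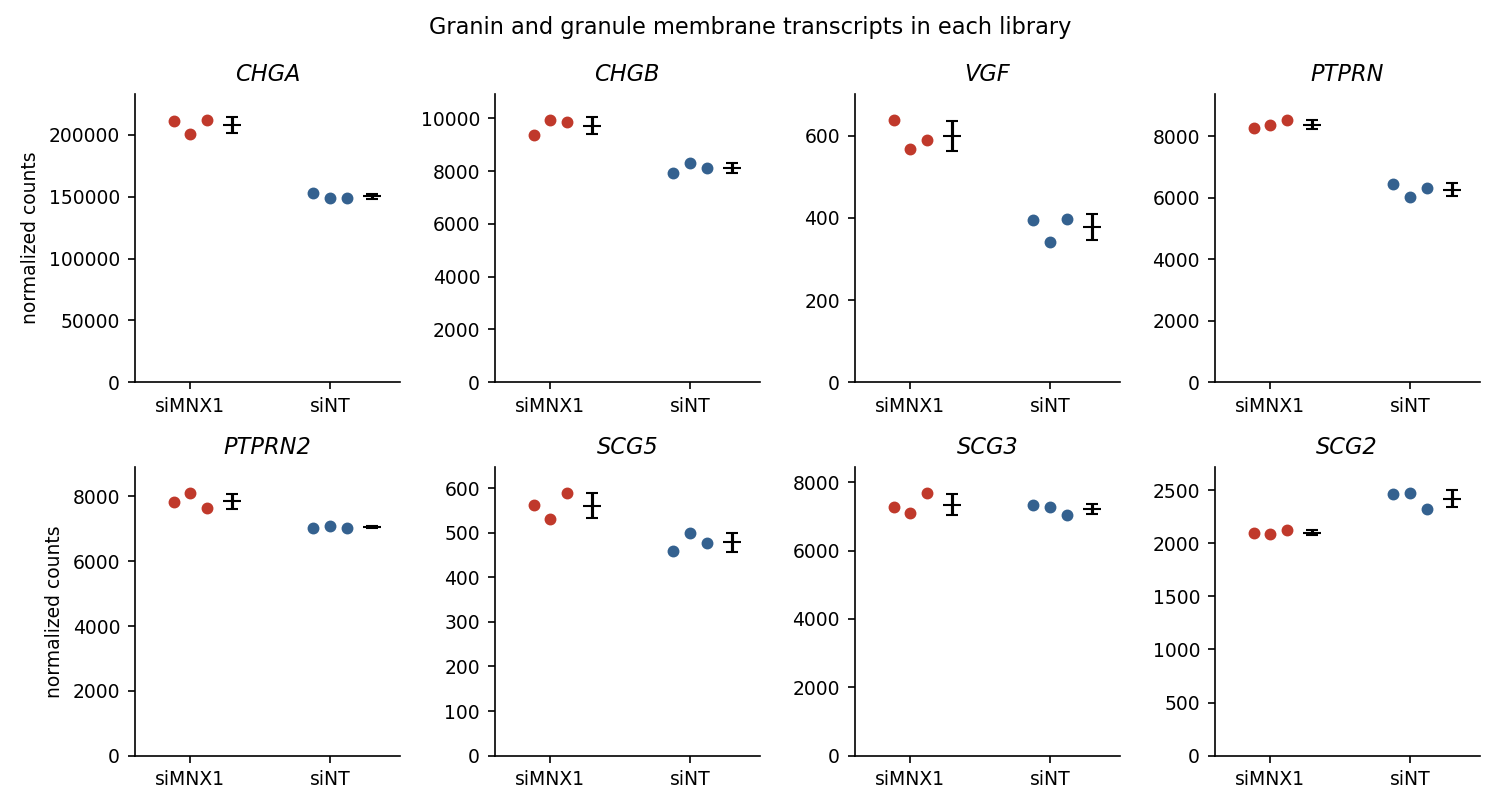
Normalized counts (vertical axes, from 0, with a different scale in each panel) of the 8 genes in each library; points are the 3 libraries of siMNX1 (red, left) and siNT (blue, right), and bars show mean ± SD. The siMNX1 points lie above the siNT points for CHGA, CHGB, VGF, PTPRN, PTPRN2 and SCG5, below them for SCG2 and among them for SCG3.

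CHGA was the most abundant of the 8 transcripts. It had 211603, 200612 and 212270 normalized counts in siMNX1 replicates 1 to 3, against 152770, 149316 and 148991 in siNT replicates 1 to 3. The groups were far apart relative to their spread, with siMNX1 replicate 2 the lowest of its group. The difference was 1.38-fold (log2 fold change 0.47, 95% interval 0.38 to 0.56, limma, adjusted p = 0.000267). CHGA ranked second among all genes by normalized count in each siMNX1 library and behind 2 genes in each siNT library. The gene lies at chr14:92923080-92935293 on the plus strand (GRCh38, GENCODE 29). The CHGA call was kept under all 15 alternatives, with adjusted p up to 0.0363.

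CHGB rose less. Its normalized counts were 9350, 9943 and 9873 in siMNX1 replicates 1 to 3, against 7931, 8310 and 8111 in siNT replicates 1 to 3. The groups did not overlap, and the gap between them was wider than the range of either group. The difference was 1.20-fold (log2 fold change 0.26, 95% interval 0.16 to 0.36, limma, adjusted p = 0.0138). This call depended on single libraries, since it ended without siMNX1 replicate 3 (adjusted p = 0.0501), siNT replicate 1 (0.0535) or siNT replicate 3 (0.0695), while the log2 fold change stayed between 0.24 and 0.29. CHGB lies at chr20:5911430-5925361 on the plus strand. The 2 chromogranin transcripts were also compared within each library. The ratio of CHGA to CHGB was 22.6, 20.2 and 21.5 in siMNX1 libraries and 19.26, 17.97 and 18.37 in siNT libraries, so it was higher in each siMNX1 library than in any siNT library. The log2 ratio was higher by 0.21 in siMNX1 (exact two-sided permutation test over libraries, p = 0.1, the smallest that 3 against 3 libraries allow).

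VGF, a far scarcer transcript, showed the largest fold change of the 8 genes. It had 639, 568 and 590 normalized counts in siMNX1 replicates 1 to 3, against 395, 340 and 396 in siNT replicates 1 to 3. The lowest siMNX1 library was well above the highest siNT library. The difference was 1.59-fold (log2 fold change 0.67, 95% interval 0.46 to 0.87, limma, adjusted p = 0.00461). With any single library left out, the log2 fold change ran from 0.60 to 0.70 and the adjusted p from 0.0081 to 0.0264. VGF lies at chr7:101162509-101165593 on the minus strand, on the same chromosome as MNX1.

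The secretogranins SCG2, SCG3 and SCG5 all missed the threshold, and they differed among themselves. SCG2 had 2094, 2082 and 2125 normalized counts in siMNX1 replicates 1 to 3, against 2462, 2470 and 2326 in siNT replicates 1 to 3. All siMNX1 libraries were below all siNT libraries, the opposite order to CHGA. Its log2 fold change was -0.20 (95% interval -0.32 to -0.09, limma, adjusted p = 0.06), and with only genes of a mean of at least 50 tested the same change passed (limma, adjusted p = 0.0495). SCG2 lies at chr2:223596940-223602503 on the minus strand.

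SCG3 had 7265, 7085 and 7678 normalized counts in siMNX1 replicates 1 to 3, against 7340, 7262 and 7056 in siNT replicates 1 to 3. The groups overlapped, and the highest and the second lowest value both came from siMNX1. Its log2 fold change was 0.02 with a 95% interval of -0.08 to 0.13 (limma, adjusted p = 0.827). SCG3 lies at chr15:51681353-51721031 on the plus strand. SCG5 had 563, 532 and 589 normalized counts in siMNX1 replicates 1 to 3, against 459, 500 and 477 in siNT replicates 1 to 3. The groups did not overlap, but the gap between them was narrower than the range from lowest to highest library within either group. The log2 fold change was 0.23 (95% interval 0.05 to 0.40, limma, adjusted p = 0.156). SCG5 lies at chr15:32641676-32697098 on the plus strand.

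**Figure D2:**
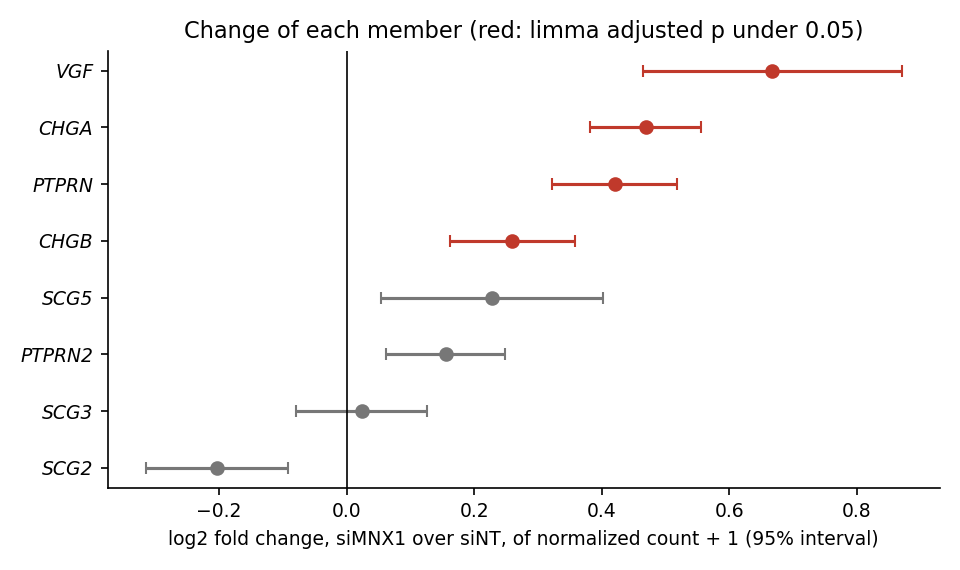
Log2 fold change of siMNX1 over siNT for each of the 8 genes on the log2(normalized count + 1) scale, with 95% intervals from limma and n = 3 libraries per group; red marks genes with an adjusted p under 0.05. VGF, CHGA, PTPRN and CHGB are red, and SCG2 alone lies below 0.

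Of the granule membrane pair, PTPRN rose. It had 8252, 8349 and 8535 normalized counts in siMNX1 replicates 1 to 3, against 6442, 6020 and 6324 in siNT replicates 1 to 3. The groups were separated by many times the spread within siMNX1. The difference was 1.34-fold (log2 fold change 0.42, 95% interval 0.32 to 0.52, limma, adjusted p = 0.00116), and the call was kept under all 15 alternatives, with adjusted p up to 0.0459. PTPRN lies at chr2:219289623-219309648 on the minus strand. An intron of PTPRN holds the hairpin of MIR153-1 on the same strand (chr2:219294111-219294200). Its mature product is shown with the seed, bases 2 to 8, in capitals, because this hairpin lies within a gene that rose. The level of the mature product was not measured here, and other loci that may yield the same mature sequence were not considered.
hsa-miR-153-3p: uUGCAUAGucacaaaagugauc

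PTPRN2 had 7829, 8099 and 7631 normalized counts in siMNX1 replicates 1 to 3, against 7031, 7093 and 7023 in siNT replicates 1 to 3. Each siMNX1 library was above each siNT library, and the siNT libraries lay very close together. Its log2 fold change was 0.16 (95% interval 0.06 to 0.25), short of the threshold by limma (adjusted p = 0.0799). The ratio of PTPRN to PTPRN2 was 1.05, 1.03 and 1.12 in siMNX1 libraries and 0.916, 0.849 and 0.901 in siNT libraries, with no overlap. The log2 ratio was higher by 0.27 in siMNX1 (exact two-sided permutation test over libraries, p = 0.1, the smallest that 3 against 3 libraries allow).

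PTPRN2 is a very long gene (chr7:157539056-158587788, minus strand) on the same chromosome arm as MNX1, which ends 528 kb before it. Its nearest tested neighbours were DNAJB6, a chaperone gene, with 2143 ± 59.8 normalized counts in siMNX1 and 2064 ± 61.1 in siNT, and NCAPG2, a condensin subunit gene, with 2327 ± 141 in siMNX1 and 2358 ± 46.6 in siNT. Of 5 tested genes that overlap PTPRN2 or lie within 250 kb of it, limma called 0, and 0 had an unadjusted p under 0.05. The 2 that overlap it, ENSG00000222012 and ENSG00000231980, are unnamed transcripts on the opposite strand with means of 43.0 and 55.5 in siMNX1 and 39.7 and 61.2 in siNT. The handling of strand is not given in the sources used here. Overlap was judged from gene bounds and not from exons. It is therefore not known whether reads of these 2 transcripts and of PTPRN2 can be told apart. Beside MNX1, the nearest tested genes were NOM1 (log2 fold change 0.06) and MNX1-AS1 (0.25), and neither passed the threshold (limma, adjusted p = 0.709 and 0.222). MNX1-AS2 overlaps MNX1 on the opposite strand (27.1 ± 1.43 in siMNX1 and 23.4 ± 1.81 in siNT), with the same limit on strand.

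Around the other 7 genes, limma called 2 of 62 tested neighbours within 250 kb, against a background of 3.32% of all genes, and 7 of the 62 had an unadjusted p under 0.05, against 18.4%. Limma called 0 of 7 neighbours of CHGA, 0 of 5 of CHGB, 0 of 8 of VGF, 0 of 1 of SCG2 and 0 of 7 of SCG5, of which 1 (of SCG5) had an unadjusted p under 0.05. Of 27 neighbours of PTPRN, 5 had an unadjusted p under 0.05 and 1 was called, the ion channel gene ASIC4 (135 ± 7.35 in siMNX1 and 227 ± 21.1 in siNT, lower, limma, adjusted p = 0.0108). Of 7 neighbours of SCG3, 1 had an unadjusted p under 0.05 and was called, the kinase gene MAPK6 (2400 ± 88.1 in siMNX1 and 1847 ± 61.6 in siNT, higher, limma, adjusted p = 0.00587). ASIC4 and MAPK6 were named after their values were seen.

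**Figure D3:**
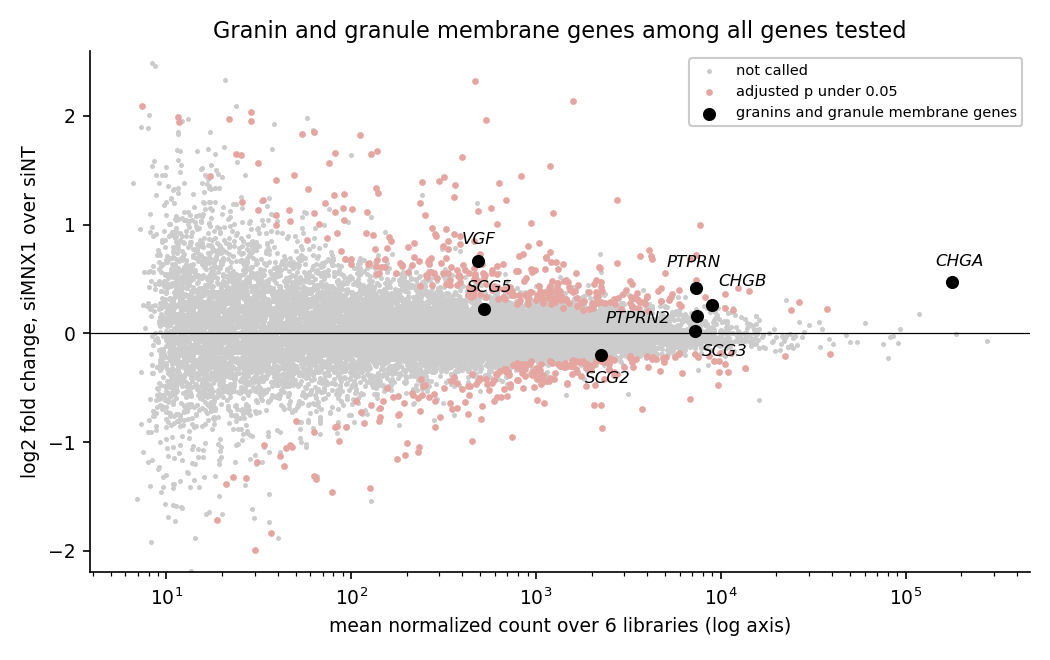
Log2 fold change of siMNX1 over siNT against the mean normalized count over the 6 libraries (log axis) for all genes tested; pink points have a limma adjusted p under 0.05, black points are the 8 genes, and 19 genes beyond the vertical range are not drawn. CHGA stands at the right edge, at a log2 fold change of 0.47, and VGF and SCG5 lie at the lowest means of the 8 genes.

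Levels were then compared between genes per kb of exon, using the union of exons in the basic GENCODE 29 set. CHGA averaged 100902 ± 3173 normalized counts per kb in siMNX1 and 72884 ± 1015 in siNT, far above CHGB at 3813 ± 127 in siMNX1 and 3183 ± 74.4 in siNT. SCG3, PTPRN and PTPRN2 followed, then SCG2 at 815 ± 8.49 in siMNX1 and 939 ± 31.4 in siNT, SCG5 at 453 ± 23.0 in siMNX1 and 387 ± 16.9 in siNT, and VGF at 222 ± 13.4 in siMNX1 and 140 ± 11.9 in siNT. The order of means was the same in both groups. One pair of neighbours overlapped in siMNX1 and not in siNT. In siMNX1 libraries SCG3 (2137 to 2316 per kb) and PTPRN (2123 to 2196 per kb) overlapped. In siNT libraries SCG3 (2128 to 2214 per kb) lay above PTPRN (1549 to 1657 per kb) without overlap. PTPRN lay above PTPRN2 in both groups, with 1579 to 1676 per kb for PTPRN2 in siMNX1 and 1453 to 1468 in siNT. All other neighbours in the order were separated in both groups. These values rest on annotated lengths, since the transcripts that these cells use are not known from the table. They also assume that the deposited values were not already corrected for length, which no source states.

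**Figure D4:**
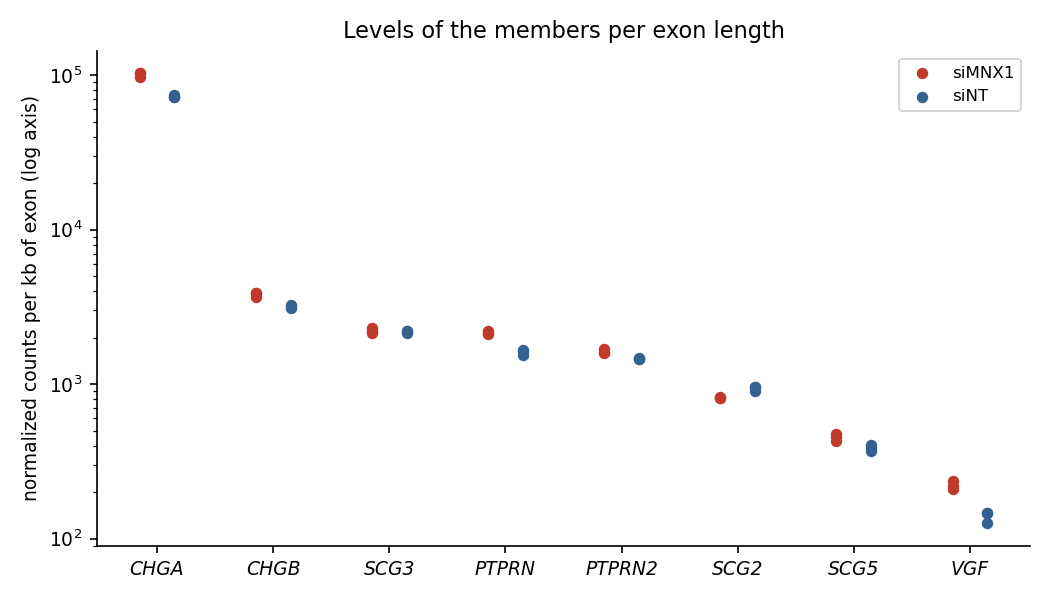
Normalized counts per kb of exon (log axis) of the 8 genes in each library, ordered by level; red points are siMNX1 (left of each pair) and blue points are siNT. CHGA lies far above the next gene, and the red points of SCG3 and PTPRN reach the same height while their blue points are apart.

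Together the 8 transcripts made up 1.32% ± 0.0433 of the deposited total in siMNX1 and 0.985% ± 0.0166 in siNT. Most of this was CHGA, which accounted for 85.1% ± 0.463 of their sum in siMNX1 and 82.5% ± 0.153 in siNT. The other 7 genes summed to 0.197% ± 0.0024 of the total in siMNX1 and 0.173% ± 0.00155 in siNT. Of the difference between groups in the sum, 62436 normalized counts, CHGA accounted for 57803, PTPRN for 2117 and CHGB for 1605. Within groups the 8 genes were tightly measured. The coefficient of variation ran from 1.04% (SCG2) to 6.05% (VGF) in siMNX1 and from 0.544% (PTPRN2) to 8.50% (VGF) in siNT.

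Genes whose profile over the 6 libraries was most like that of a called gene were sought among the 7557 named genes with a mean of at least 500, by Pearson correlation of log2(value + 1). For CHGA they were BCAM (r = 0.997), RFX6 (0.997) and OLMALINC (0.996), and all 3 were called higher by limma. RFX6, a transcription factor of islet development, averaged 4565 ± 81.1 in siMNX1 and 2784 ± 14.8 in siNT. For PTPRN they were CYP4F3 (0.999), PRSS12 (0.997) and FAM13A (0.996), again all called higher. For VGF they were GNG2 (0.998), ZBTB46 (0.997) and ANK1 (0.994), of which GNG2 and ANK1 were called higher. For CHGB they were EIF1 (0.994), UGCG (0.991) and MYEF2 (0.987), none of which passed (limma, adjusted p = 0.389, 0.0803 and 0.199). All 6 libraries enter each correlation, so the difference between the groups sets most of it, and values this high over so few libraries are a description only.

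Genes that work with the granins in the same granules were read from lists chosen by function. These lists and the marker lists below were drawn up with earlier results of these data known. Their counts are therefore not independent evidence. Over all genes, limma called 1.99% higher and 1.33% lower, and 18.4% had an unadjusted p under 0.05. Among prohormone processing enzymes, 2 of 14 measured genes were higher and 0 lower, with a median log2 fold change of 0.04. An unadjusted limma p under 0.05 was reached by 4 of the 14. PCSK2, the convertase that SCG5 chaperones, had 1996, 1864 and 2030 normalized counts in siMNX1 replicates 1 to 3, against 1249, 1323 and 1437 in siNT replicates 1 to 3 (log2 fold change 0.56 with limma, adjusted p = 0.00243). The groups did not overlap, and the call held with any single library left out. PCSK1, the other convertase of regulated granules, averaged 3481 ± 344 in siMNX1 and 2636 ± 121 in siNT (log2 fold change 0.40, limma, adjusted p = 0.0216). The PCSK1 call ended without siMNX1 replicate 1 (adjusted p = 0.0744), siNT replicate 1 (0.0591), siNT replicate 2 (0.0609) or siNT replicate 3 (0.108). With any of these 4 libraries left out, PCSK2 was then the only one of the 14 called.

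Among 16 measured precursors of peptides, of 34 fixed, 4 were higher and 1 lower, with a median of 0.0002. Of the 16, 6 had an unadjusted limma p under 0.05, where 18.4% of all genes did. SST, which encodes somatostatin, rose (858 ± 24.5 in siMNX1 and 220 ± 16.6 in siNT, limma, adjusted p = 3.97e-06), as did UCN3, which encodes urocortin 3 (551 ± 19.95 in siMNX1 and 391 ± 18.8 in siNT, limma, adjusted p = 0.0105). PCSK1N, whose product proSAAS is a granin-like inhibitor of PCSK1, averaged 29226 ± 999 in siMNX1 and 23908 ± 1506 in siNT (log2 fold change 0.29, limma, adjusted p = 0.0177). That call ended without siMNX1 replicate 1 (adjusted p = 0.0723), siNT replicate 2 (0.0806) or siNT replicate 3 (0.0973). The other gene called higher was IGF2, named because it completes the count (log2 fold change 0.23). IAPP, which encodes islet amyloid polypeptide, averaged 15.3 ± 3.76 in siMNX1 and 57.8 ± 16.1 in siNT (limma, adjusted p = 0.0123), and leaving out siNT replicate 1 or siNT replicate 2 ended this call (adjusted p = 0.0583 and 0.0671). The list's count of calls was 3 without siMNX1 replicate 1, siNT replicate 1 or siNT replicate 3 and 2 without siNT replicate 2, where the full set gave 5.

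Of 42 genes of granule biogenesis and sorting, 9 had an unadjusted limma p under 0.05 (18.4% of all genes), and the median was -0.004. Limma called 1 higher and 0 lower. It was BAIAP3, which acts in dense-core vesicle maturation and trafficking (782 ± 48.2 in siMNX1 and 156 ± 9.82 in siNT, limma, adjusted p = 2.47e-06). Leaving out siNT replicate 1 gave 2 calls. Of 29 measured genes of 35 for other proteins of the granule membrane and its transport, 3 were higher and 1 lower, with a median of 0.04. An unadjusted limma p under 0.05 was found for 13 of the 29. The synaptotagmin gene SYT4 averaged 1062 ± 76.6 in siMNX1 and 640 ± 43.6 in siNT (limma, adjusted p = 0.00148), and SV2B, a vesicle glycoprotein gene, averaged 124 ± 16.7 in siMNX1 and 39.3 ± 11.8 in siNT (limma, adjusted p = 0.00461). SYT11 (log2 fold change 0.34) was called higher and SYT9 (-1.05) lower, and each of these calls was kept in only 1 of 6 cases when a library was left out: SYT11 without siNT replicate 1 and SYT9 without siMNX1 replicate 2. The highest adjusted p in the other 5 cases was 0.124 for SYT11 and 0.115 for SYT9. This list had 2 calls without siMNX1 replicate 1, siMNX1 replicate 3 or siNT replicate 2, where the full set gave 4.

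The proton pump that acidifies granules showed 0 calls by limma among 20 measured subunit genes of 23, with 3 at an unadjusted p under 0.05 (18.4% of all genes) and a median of -0.03. Its most abundant subunits ATP6AP1 and ATP6V0C had log2 fold changes of -0.06 and -0.14.

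**Figure D5:**
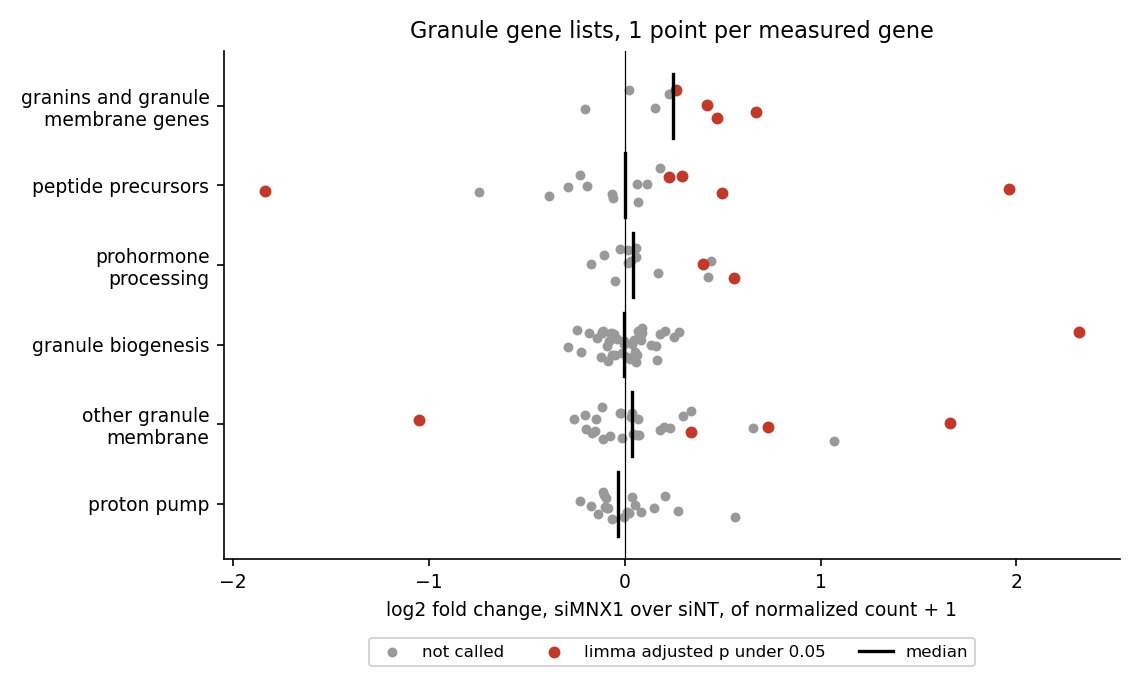
Log2 fold change of siMNX1 over siNT for each measured gene (1 point per gene) of the 8 granin and granule membrane genes and 5 lists of related genes; red points passed limma at an adjusted p of 0.05 and black bars are list medians. The median of the top row is 0.24, and those of the other lists lie between -0.03 and 0.04.

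Granins are made by several endocrine cell types, so markers of other cells were read beside them. All libraries are of the same beta cell line, so these are levels of marker transcripts in that line. In bulk libraries, more cells that express a marker and more of its RNA per cell cannot be told apart. Of 9 measured delta cell markers of 12, limma called 3 higher and 2 lower, where 1.99% of all genes were higher and 1.33% lower. An unadjusted limma p under 0.05 was reached by 5 of the 9 and by 18.4% of all genes. Their summed normalized counts were 18744 to 20171 in siMNX1 and 16544 to 16975 in siNT. A large part of this sum was PDX1, named for that reason, which is also a beta cell factor. PDX1 averaged 8215 ± 106.1 in siMNX1 and 8493 ± 103.5 in siNT, so the sum is not particular to delta cells. SST, HHEX (484 ± 24.4 in siMNX1 and 54.1 ± 10.6 in siNT) and CASR rose, while RBP4 and FFAR4 fell. The difference between groups in the sum came mostly from CASR, which averaged 8607 ± 656 in siMNX1 and 6112 ± 87.1 in siNT, and whose call ended without the variance trend (limma, adjusted p = 0.0525). Of 8 measured alpha cell markers of 12, 2 were higher (RGS4 and KCTD12) and 2 lower (CRYBA2 and GC), beside the same shares of all genes. An unadjusted limma p under 0.05 was reached by 4 of the 8. The alpha marker sum was 25243 to 26260 in siMNX1 and 26037 to 27262 in siNT. The GC call ended without siNT replicate 2 (limma, adjusted p = 0.0513) and without the variance trend (0.1005). The KCTD12 call also ended without the variance trend (limma, adjusted p = 0.05645). Of 5 measured enterochromaffin and chromaffin markers of 14, limma called 0, with 1 at an unadjusted p under 0.05, and the sum was 4934 to 4982 in siMNX1 and 4619 to 4962 in siNT, most of it DDC. DDC and PNMT, the most abundant of these, had log2 fold changes of 0.04 and 0.02. GCG, LMX1A and DBH were not analysed here.

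Limma also called 0 of 3 measured acinar markers of 16, 0 of 7 ductal markers of 14 and 0 of 4 stromal, endothelial and immune markers of 18, with 0, 2 and 2 at an unadjusted p under 0.05, where 18.4% of all genes were. The summed acinar markers were 686 to 714 in siMNX1 and 660 to 781 in siNT, with CPA1 and CLPS the most abundant. The ductal sum was 10889 to 11103 in siMNX1 and 10814 to 11855 in siNT, with KRT8 and KRT19 the most abundant. The stromal, endothelial and immune sum was 5079 to 5686 in siMNX1 and 5798 to 6289 in siNT, with CD74 (log2 fold change -0.18) and CD68 (-0.20) the most abundant. The relation of any of these marker transcripts to the granin values was not tested.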

How the data were processed

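RNA of 6 EndoC-βH1 libraries was profiled by sequencing. Per the labels' protocols, the Ovation Solo kit was used on 5 ng of RNA (RNeasy), and AnyDeplete removed ribosomal RNA. The deposited values are normalized counts per gene, a signal with decimals; they were taken as not corrected for gene length, which no source states. The submitters' processing notes name GRCh38 and, without saying what each did, RSEM 1.3.1, STAR 2.7.6a, DESeq, DESeq2 1.26.0 and R 3.6.3; their annotation release is not given in the sources used here. At best 25.5% to 47.4% of values under 10 lay within 0.02 of a whole multiple of one step, so whole reads could not be recovered, no count model was fitted and no counting interval is given.

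Groups and replicate numbers came from the sample titles. Values were analysed as log2(value + 1), where fold changes understate those of low genes. A variance-trended limma model (limma 3.58.1, R 4.3.3) was fitted over all 16792 genes (lowest mean 6.57, so none needed removal), with Benjamini-Hochberg adjustment over all of them and a threshold of 0.05. The procedure was tested on simulated data. Ratios of gene pairs were compared by exact permutation over libraries. No value above 0 was identical between any pair of libraries. Alternatives were other pseudocounts (0.5 and 5), a minimum mean of 50, TMM factors and other scalings, other variance models, a replicate block, and each library left out. Positions and exon lengths came from GENCODE 29 and promoters and the miRNA from RefSeq. Tables and figures used matplotlib 3.10.9, scipy 1.17.1, pandas 2.3.3 and numpy 2.4.6 under Python 3.11.15.

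The 8 genes and the 12 other lists were chosen with earlier results of these data known, so no count is independent evidence; 1 of these lists is not reported here. Named genes were the 8 genes, MNX1, up to 4 called genes per list by adjusted p (otherwise the 2 most abundant), the 3 closest profiles of each called gene, and the nearest neighbours of PTPRN2 and MNX1; exceptions are stated.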

Additional observations from a re-analysis of the deposited data

How the results depend on the processing

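VGF, CHGA and PTPRN were called higher under all 15 alternatives, and none of the 8 genes except SCG3 changed sign. CHGB (log2 fold change 0.26) lost its call without the variance trend (adjusted p = 0.119) and ranged from 0.24 to 0.29 with single libraries left out. SCG2 (-0.20) passed with a minimum mean of 50, which tests fewer genes and made 1 gene lower. SCG3 turned to -0.0088 without siMNX1 replicate 3 (highest 0.0492). With single libraries left out, 3 to 4 of the 8 genes were higher and 133 to 257 of all genes were higher and 64 to 179 lower; without the variance trend these were 131 and 60, and with the replicate block 162 and 75. The cause was not tested. The replicate numbers did not pair the libraries: same-numbered libraries had correlations of -0.078, -0.079 and -0.071 between their deviations from the group means, and no library correlated best with its own number. With the block, the 4 genes called higher were again 4 (CHGB adjusted p = 0.048), and for PTPRN over PTPRN2 and CHGA over CHGB the exact permutation p was 0.25, the smallest 3 pairs allow (0.1 unpaired). Calls with single libraries left out ran from 2 to 4 for peptide precursors, 1 to 2 for processing enzymes, 1 to 2 for biogenesis, 2 to 4 for other membrane genes and 3 to 4 for alpha markers; without the variance trend they were 2 for precursors, 1 for processing enzymes and 2 for alpha markers, and a minimum mean of 50 gave 1 ductal call. Values near 0 changed sign for CPA1 (0.0037, 0.0183 and 0.0213 without siMNX1 replicate 1, siNT replicate 2 and siNT replicate 3, lowest -0.0729), KRT8 (0.0079 without siNT replicate 1, lowest -0.0739) and PNMT (-0.0548 without siMNX1 replicate 2 and -0.056 without siNT replicate 2, highest 0.1116). The unknown read depth limits what can be said of counting error.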
